A study of Mus musculus with 12 samples.

Results

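Gene expression on diet number 3 was compared with that on diet number 2 in intestine and intestinal tumors of mice prone to adenomas. The comparison used 8 of the 12 arrays of the series, 4 of each diet, and the arrays were chosen by their labels alone. Every animal named in the labels was a male Min/+ mouse of 91 days, which carries a mutant allele of the tumor suppressor Apc and develops many intestinal adenomas, so all groups shared that allele, sex and age. For each diet there was 1 array of normal intestine and 1 array of tumor from a Dnmt+/- mouse, which is heterozygous for a DNA methyltransferase gene, and 1 array of each tissue from a Dnmt+/+ mouse. This gave 4 matched pairs of arrays, each pair holding the same tissue and genotype on both diets, 2 pairs of normal intestine and 2 of tumor. The labels give the diets by number only, with nothing on their composition. The labels also do not name the length of intestine that was taken or how many animals or tumors went into an RNA sample, and nothing in them says that arrays came from separate animals. P-values therefore measure only how far these samples spread, and that spread may be technical.

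RNA was hybridised to Affymetrix MG_U74Av2 arrays, on which each probe set reads 1 transcript as a single-colour intensity. A difference below is the mean of diet 3 minus the mean of diet 2 on the log2 scale after quantile normalization, and a value of 1 is a 2-fold higher level on diet 3. Its standard error comes from the limma fit, which pools the residual spread of all 8 arrays and has no term for the pair, so tumor and normal differences of a gene carry the same error. The intensities quoted for single arrays are the deposited ones, with the Dnmt+/- array first and the Dnmt+/+ array second. A probe set was called where its limma p-value, adjusted by Benjamini-Hochberg over the 7453 probe sets tested, was under 0.05.

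The small intestine digests and absorbs food along its length with a changing set of enzymes and transporters. Its first part, the duodenum, lies against the pancreas, receives bile and pancreatic enzymes, and is the main site of iron and calcium uptake. Enterocytes carry peptidases, disaccharidases and transporters on their brush border, pack absorbed fat into apolipoprotein B particles, and turn over constantly from dividing crypt cells. Many of their genes respond to what is eaten, and many also differ between the upper and lower small intestine, so the level of such a gene in bulk RNA reflects both the cells present and their state. In bulk tissue, fewer cells of a type and less RNA per cell cannot be told apart.

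The 8 arrays each had a mean deposited intensity of 1000, with medians between 198.8 and 259.3. Their number limits the precision of every value. Markers of intestinal epithelium were bright on all 8 arrays, among them the goblet cell peptide Tff3 (27287 to 31400.0). The diet 2 and diet 3 arrays differed in the lower end of their values, with 5th percentiles of 6.95 to 7.92 on diet 2 and 9.33 to 11.5 on diet 3. This difference coincides with diet, and the 2 cannot be told apart in dim genes. The diet 2 normal arrays stood apart by their exocrine pancreas transcripts, whose listed probe sets held 3.39% and 4.2% of all intensity there and between 0.444% and 0.628% on the other 6 arrays. Dnmt1, the maintenance DNA methyltransferase, was lower in the Dnmt+/- array of each matched tissue and diet (612 against 776 in diet 2 normal intestine, for example) and did not pass the test between diets, with differences of 0.03 ± 0.16 in tumors (adjusted p = 0.943) and -0.23 ± 0.16 in normal intestine (adjusted p = 0.397).

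Tissue was the largest source of variation and diet the next. The first principal component held 52.4% of the variance and separated tumor from normal intestine, and the second held 23.5% and separated the diets within each tissue. On the second component the normal arrays lay at -22.1 and -24.8 on diet 2 and at 31.1 and 31.9 on diet 3, while the tumor arrays lay at -11.7 and -9.9 on diet 2 and at 1.4 and 4.1 on diet 3. Normal arrays of different diets correlated at 0.906 to 0.911, against 0.973 and 0.974 for the 2 genotypes within a diet. Tumor arrays of different diets correlated at 0.949 to 0.962, against 0.979 within diet 2 and 0.958 within diet 3.

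**Figure D1:**
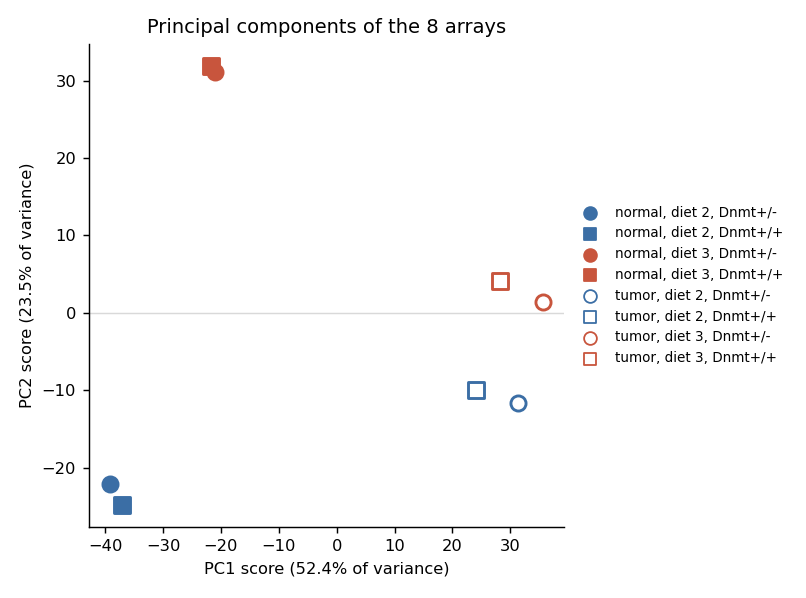
Scores of the 8 arrays on the first 2 principal components of the log2 values of the 7453 probe sets tested, with normal intestine as filled and tumors as open symbols, diet 2 in blue, diet 3 in red, Dnmt+/- as circles and Dnmt+/+ as squares. The second component (23.5% of the variance) spans -24.8 to 31.9 in normal intestine and -11.7 to 4.1 in tumors.

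Most calls were made in normal intestine. In the normal pairs 558 probe sets were called (7.49% of those tested), 311 of them higher on diet 3 (4.17%) and 247 lower (3.31%), and 294 of the 558 differed at least 2-fold. Counted with 1 probe set per gene, 232 of 5651 genes were higher (4.11%) and 174 lower (3.08%). The count rested on few arrays: without the Dnmt+/- or Dnmt+/+ normal array it was 95 and 91 for diet 2 and 45 and 77 for diet 3. Without the tumor arrays it was 149 and 149 for diet 2 and 463 and 463 for diet 3. Of 79 genes chosen by the naming rule for the normal pairs, 19 kept an adjusted p under 0.05 whichever array was left out, which is called stable below: 2210010C04Rik, Aldh1a1, Cel, Cela1, Cela2a, Clu, Ctrl, Gatm, Ggh, Ints9, Lap3, Pnliprp1, Prss2, Rnase1, Slc11a2, Slc2a1, Slc34a2, Tbc1d24 and Tff2. The counts for gene lists below stand beside the 4.11% of all genes that were higher and the 3.08% that were lower.

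Genes of the absorptive surface were among the largest increases on diet 3. Slc34a2, a sodium-phosphate cotransporter of the apical membrane, had deposited intensities of 39.8 and 68.4 in normal intestine on diet 2 and 1151 and 1598 on diet 3. The groups did not overlap, but the gene was picked among calls with the same direction in both pairs, so this adds no support. The difference of 4.53 ± 0.28 (adjusted p = 0.00144) was stable. Cubn, which encodes cubilin, the receptor for vitamin B12 bound to intrinsic factor, read 422 and 629 on diet 2 and 3202 and 3025 on diet 3, a difference of 2.43 ± 0.26 (adjusted p = 0.00974). Both genes were also high in the tumors, where the diets were close together: Slc34a2 read 3879 and 3161 on diet 2 and 3473 and 3496 on diet 3. Cubn in tumors read 3599 and 4615 on diet 2 against 3733 and 2947 on diet 3. The low values were thus those of the diet 2 normal arrays.

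Reg3a, a secreted lectin of the antimicrobial Reg family, showed the same arrangement. Its normal arrays read 401 and 1303 on diet 2 and 13094 and 10927 on diet 3, and its tumor arrays 3486 and 3633 on diet 2 against 3230.3 and 4390.1 on diet 3. The difference in the normal pairs was 3.87 ± 0.44 (adjusted p = 0.0113), and a second probe set gave 4.31 ± 0.46. Dnase1, a secreted deoxyribonuclease, rose from 59.1 and 224 to 2769 and 1888 (difference 4.11 ± 0.53, adjusted p = 0.0163). In both genes the diet 2 arrays lay below the diet 3 arrays and differed widely between genotypes.

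Genes of peptide digestion and amino acid handling were mostly higher on diet 3. Of the 14 measured genes 5 rose and 0 fell in normal intestine, 13 had a difference above 0, and the median difference was 0.73, beside 0.04 over all 5651 genes. Lap3, a cytosolic leucine aminopeptidase, read 52.7 and 59.9 on diet 2 and 249 and 384 on diet 3, a stable difference of 2.37 ± 0.19 (adjusted p = 0.00365). Ace, the dipeptidase of the brush border better known for its part in blood pressure, read 648 and 703 on diet 2 and 3014 and 2228 on diet 3 (difference 1.80 ± 0.24, adjusted p = 0.0165), and its second probe set gave 1.25 ± 0.20. Mep1a and Mep1b, the subunits of the brush border protease meprin, rose by 1.11 and 0.75, and Pepd, which splits dipeptides ending in proline, by 0.70. Anpep and Enpep, the brush border aminopeptidases N and A, had differences of 0.95 and 1.69 that did not pass (adjusted p = 0.212 and 0.0533). In the tumors the same list had a median of -0.05, with 7 genes above 0 and 7 below. With any 1 normal array left out, 1 or 2 of the 14 were still called and the median lay between 0.63 and 0.76.

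Fat absorption followed a similar course. Of 16 measured genes of lipid absorption and lipoproteins, 4 rose and 0 fell in normal intestine, 15 were above 0 and the median difference was 0.65, against 0.04 in the tumors. Apob, the structural protein of chylomicrons, read 4136 and 3544 on diet 2 and 9734 and 11679.6 on diet 3 (difference 1.43 ± 0.16, adjusted p = 0.0113). Slc27a2, which activates fatty acids for uptake, rose by 1.03 ± 0.22. Fabp2, the intestinal fatty acid-binding protein, rose by 0.83 ± 0.17. Plin2, the coat protein of lipid droplets, rose by 0.88 ± 0.18 in normal intestine and had a difference of 0.78 ± 0.18 in tumors, which did not pass there (adjusted p = 0.144). Mttp, the protein that loads lipid onto apolipoprotein B, was the single member below 0, at -0.20. None of the 4 calls was kept when any 1 normal array was left out, although the median stayed between 0.44 and 0.85.

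Among 10 retinoid genes 3 rose, led by Aldh1a1, which oxidises retinal to retinoic acid: it read 1794 and 2445 on diet 2 and 12549 and 11065 on diet 3, a stable difference of 2.37 ± 0.19 (adjusted p = 0.00389). Its near relative Aldh1a7 rose by 1.34 ± 0.20, and since the 2 genes are close copies their probe sets may share signal. Rdh7, a retinol dehydrogenase, rose by 1.01 ± 0.18. Oat, which converts ornithine in amino acid breakdown, rose by 1.47 ± 0.14. Pck1, the key enzyme of gluconeogenesis and of glycerol synthesis, read 130.2 and 88.7 on diet 2 and 1153 and 644 on diet 3 (difference 2.90 ± 0.28, adjusted p = 0.00724). Guca2b, the hormone uroguanylin, rose by 1.24 ± 0.20, and Lct, the brush border lactase, by 0.82 ± 0.16. Catalase (Cat) rose by 1.33 ± 0.21 on its brightest probe set, while a second probe set gave -0.70 ± 0.20, so the 2 probe sets disagreed.

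The brush border list as a whole held both extremes. Of its 19 measured genes 5 rose and 1 fell, with a median of 0.40 in normal intestine and -0.06 in tumors. The gene that fell was Akp3, an intestinal alkaline phosphatase of the upper small intestine, which read 18591 and 14395 on diet 2 and 163 and 212 on diet 3 (difference -6.28 ± 1.26, adjusted p = 0.0427). In tumors Akp3 differed more between genotypes than between diets, at 65.9 and 1743 on diet 2 and 63.4 and 743 on diet 3. Without any 1 normal array, 1 gene of the list was called higher and 0 lower.

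Several genes known for the duodenum or its glands were lower on diet 3 together with Akp3. Tff2, a trefoil peptide of the stomach and of the duodenal Brunner's glands, read 17091 and 8676 in normal intestine on diet 2 and 15.8 and 13.7 on diet 3, where both arrays were under the floor of 38.7 set on the normalized values. It was therefore at least 308-fold lower on diet 3 (adjusted p = 0.00254), and the call was stable. The floor held both diet 3 arrays level, so the spread behind this p-value and the stable call may be understated. The other stomach markers did not pass: Tff1 and the proton pump subunit Atp4a had differences of -0.34 and 0.13 (adjusted p = 0.386 and 0.682). S100g, the calcium-binding protein calbindin-D9k, read 3305 and 795 on diet 2 and 168 and 117 on diet 3 (difference -3.48 ± 0.69, adjusted p = 0.0409), and a second probe set gave -2.79 ± 0.72. The transcription factor Gata4, which marks the upper small intestine, fell by 1.23 ± 0.26 (adjusted p = 0.0477). Among the 5 measured genes listed for the proximal intestine 1 rose (Lct) and 1 fell (Gata4), and the hormones Cck, Gip and Sct of the same list had differences of -0.20, 0.41 and -0.60 that did not pass.

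Genes of metal transport gave calls in both directions. Of 14 measured genes for iron, zinc and copper, 1 rose and 3 fell, with a median of -0.13. Slc11a2, the ferrous iron importer DMT1, read 9945 and 22943 on diet 2 and 314 and 1042 on diet 3, a stable difference of -4.54 ± 0.30 (adjusted p = 0.00176). A second probe set of Slc11a2 gave only -0.34 ± 0.13, so the 2 probe sets disagreed in size. Slc39a4, the zinc importer of enterocytes, read 7229 and 5472 on diet 2 and 3126 and 2728 on diet 3 (difference -1.10 ± 0.15), and its second probe set had the opposite sign (0.28 ± 0.15). The copper pump Atp7a had a difference of -0.89 ± 0.14, but its second probe set gave only -0.19 ± 0.16. Slc31a1, the copper importer, had a difference of 0.65 ± 0.13. The metallothioneins Mt1 and Mt2 had differences of -0.13 and -0.24 and did not pass. The iron store subunit Fth1 (-0.12) and the transferrin receptor Tfrc (0.13) did not pass either.

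**Figure D2:**
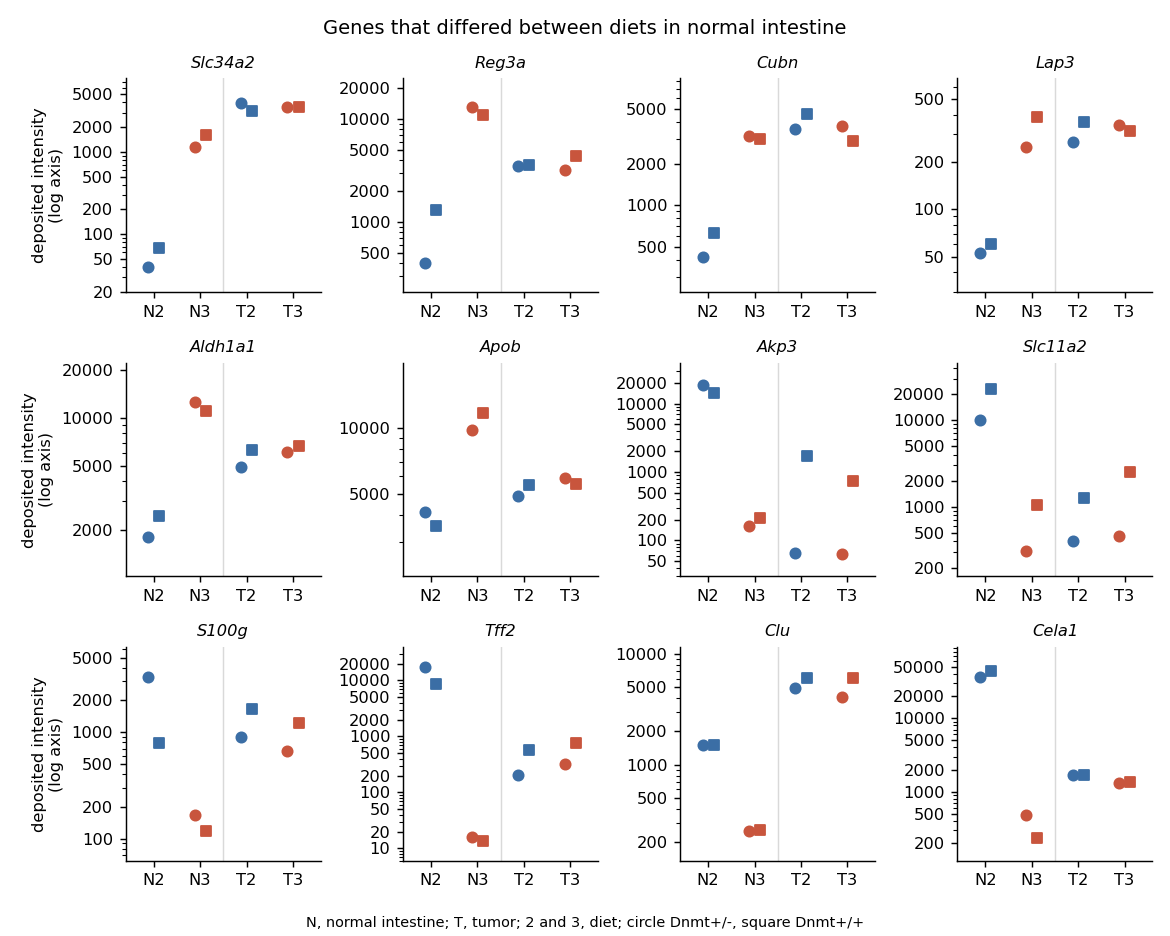
Deposited intensity (log axis, 1 panel per gene) of 12 genes on each of the 8 arrays, with normal intestine (N) left and tumors (T) right of the grey line, diet 2 in blue and diet 3 in red, Dnmt+/- as circles and Dnmt+/+ as squares. In Slc34a2, Reg3a, Cubn and Lap3 the diet 2 normal arrays are the lowest, in Akp3, Slc11a2, Tff2 and Cela1 they are the highest.

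Transcripts of exocrine pancreas made up the largest decreases. Of 34 listed genes 16 passed the filter on dim values, and a gene could pass through the bright diet 2 normal arrays alone, so their count is a description. Of these 16, 14 fell in normal intestine and all 16 were below 0, with a median of -6.27, while the tumor median was -0.10. Prss2, a trypsinogen, read 28974 and 34397 on diet 2 and 15.2 and 18.7 on diet 3, at or under the floor. It was thus at least 732-fold lower on diet 3 (adjusted p = 1.04e-06). The floor held its other arrays level and so its spread down, so this p-value and its stable call give no measure of support. Cel, the bile salt-dependent lipase, read 39839 and 48435 on diet 2 against 290.0 and 288 on diet 3 (difference -6.97 ± 0.14), and Ctrb1, chymotrypsinogen B, 47769 and 57749.9 on diet 2 against 669 and 599 on diet 3 (difference -6.21 ± 0.15). The elastases Cela1 and Cela2a fell by 6.62 and 7.76, the lipase-related Pnliprp1 by 8.01, the granule protein Sycn by 7.97 and the ribonuclease Rnase1 by 6.32. The 2 members that did not pass were Reg1 (-1.37 ± 0.85) and Zg16 (-0.09 ± 0.13), which goblet cells of the gut also make. With any 1 normal array left out, 10 to 14 of the 16 were still called. The 2210010C04Rik transcript, which is not on the list, fell with them, from 33586 and 39382 to 532 and 470.0 (stable, difference -5.93 ± 0.17). Of 6 measured endocrine pancreas genes 0 were called in the normal pairs, and their median difference was 0.19. The pancreas transcripts were high on the same 2 arrays as Akp3, Tff2 and Gata4, and their part in the other differences of normal intestine was not tested. S100g was higher on those arrays than on the diet 3 normal arrays. Its diet 2 Dnmt+/+ normal array (795) still read below the Dnmt+/+ tumors (1638 on diet 2 and 1217 on diet 3). Left out of the count, the pancreas lists removed 14 of the 558 calls. This counts listed genes only: 2210010C04Rik, Gatm and Klk1b1, also high on those 2 arrays, stayed in the count.

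The stretches before the starts of 3 of the genes that fell together are shown as examples of genes that moved together on the same arrays. They are the 250 bases upstream of the start in RefSeq on GRCm38.p6, written 5′ to 3′ on the gene's strand, with matches to AGATAA or TGATAA, the core of a GATA factor site, on either strand in capitals. Cela1 lies at chr15:100687921-100688170, Cela2a at chr4:141826006-141826255 and Rnase1 at chr14:51146768-51147017, all on the minus strand.
Cela1: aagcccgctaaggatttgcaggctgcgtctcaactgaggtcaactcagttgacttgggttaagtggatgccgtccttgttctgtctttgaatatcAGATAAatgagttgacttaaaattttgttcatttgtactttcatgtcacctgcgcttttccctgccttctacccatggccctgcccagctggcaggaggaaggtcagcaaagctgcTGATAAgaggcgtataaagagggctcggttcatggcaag
Cela2a: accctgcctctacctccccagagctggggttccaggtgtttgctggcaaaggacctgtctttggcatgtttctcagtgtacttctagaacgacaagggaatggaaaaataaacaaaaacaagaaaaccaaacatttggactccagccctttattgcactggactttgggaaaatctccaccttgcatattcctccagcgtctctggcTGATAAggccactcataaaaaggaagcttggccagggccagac
Rnase1: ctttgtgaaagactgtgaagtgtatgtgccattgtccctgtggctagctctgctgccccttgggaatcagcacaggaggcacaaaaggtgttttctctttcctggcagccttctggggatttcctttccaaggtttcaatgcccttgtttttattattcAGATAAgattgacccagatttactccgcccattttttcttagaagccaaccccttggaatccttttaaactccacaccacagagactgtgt
Cela1 held 2 matches, at -155 and -39 counted from the start, Cela2a held 1 at -43 and Rnase1 held 1 at -91. Of the 18 genes named as falling most in normal intestine, 16 had a sequence and 7 of those (43.8%) held a match. The share was 22.2% (2 of 9) in the genes named as rising most, 11.6% in the genes tested and 18.8% in all genes of the table. The 7 that fell were 2210010C04Rik and the exocrine pancreas genes Cel, Cela1, Cela2a, Ctrl, Rnase1 and Sycn. The other genes that fell, among them Prss2, Akp3, S100g, Muc1 and Gatm, held no match, so the 43.8% does not describe them. In Cela1 a TATAAA box at -27 followed the GATA matches without overlapping them. TATAAA, on either strand, stood in 25% of the genes that fell, 22.2% of those that rose and 9.39% of the genes tested. A match is a description of letters and does not show that a factor bound there.

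A further set of genes fell as well. Among them Gatm, Klk1b1, Klk1b22, Muc1 and Car2 were highest on the same diet 2 normal arrays as the pancreas transcripts. Whether they share a source with those transcripts was not tested. Clu, the secreted chaperone clusterin, read 1519.6 and 1495 on diet 2 and 255 and 259 on diet 3, a stable difference of -2.48 ± 0.18 (adjusted p = 0.00263), and its second probe set gave -2.20 ± 0.29. Ggh, which trims the glutamate tail of folates, read 637 and 803 on diet 2 against 149.9 and 149 on diet 3 (stable, difference -2.24 ± 0.16). Gatm, the first enzyme of creatine synthesis, read 1169 and 1151 on diet 2 against 147 and 133 on diet 3 (stable, difference -3.01 ± 0.15). The cell surface mucin Muc1 fell by 3.03, the glucose transporter Slc2a1 by 2.22 with 1 diet 3 array at the floor, and the carbonic anhydrase Car2 by 2.33. Klk1b1 and Klk1b22, kallikreins of a family of near-identical genes whose probe sets may share signal, had differences of -3.57 and -3.27. The clock output factor Nfil3 fell by 2.34, but a second probe set gave 0.32 ± 0.49. The mast cell protease Mcpt1 fell by 2.42 with 1 diet 3 array at the floor, and its second probe set gave 0.21 ± 0.36.

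Lists of lipid synthesis and proliferation held few calls. In the cholesterol synthesis list 2 of 17 genes fell and 0 rose, with a median of -0.16: Mvd, mevalonate decarboxylase, had a difference of -1.15 ± 0.17 and Fdft1, squalene synthase, one of -0.62 ± 0.13. Elovl6, which elongates fatty acids, fell in normal intestine from 3453 and 2798 to 752 and 1003 (difference -1.80 ± 0.22). Of 24 replication genes 2 rose and 1 fell, against 4.11% and 3.08% of all genes: the sliding clamp Pcna had a difference of 0.96 ± 0.13. The 2 subunits of ribonucleotide reductase went opposite ways, with Rrm1 at 2.55 ± 0.29 and Rrm2 at -1.11 ± 0.17. Of 33 mitosis genes 3 rose and 0 fell, including the checkpoint kinase Ttk (1.78 ± 0.30) and its partner in the spindle checkpoint Mad2l1 (0.88 ± 0.13).

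Acta1, the alpha-actin of skeletal muscle, read 223 and 236 on diet 2 and 2869.7 and 2807 on diet 3 (difference 3.44 ± 0.37, adjusted p = 0.00981). Tnni1, the troponin I of slow skeletal muscle, went the other way, from 2609 and 1334 on diet 2 to 348 and 350.3 on diet 3 (difference -2.35 ± 0.28, adjusted p = 0.0124). Of 14 smooth muscle genes 0 rose, 1 (Ckb, brain-type creatine kinase, -0.97 ± 0.21) fell, and the median was -0.01. Of 9 adipose genes 2 rose, the fat cell hormone Adipoq, from 153 and 78.6 to 501 and 557 (difference 2.21 ± 0.34), and the lipase Lipe (1.32 ± 0.27), with a list median of 0.29. The fat cell marker Fabp4 (0.35) and the leptin gene Lep (-0.63) did not pass. Whether the amount of attached fat tissue contributed was not tested.

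In the tumors no probe set passed. Of 7453 probe sets 0 (0%) were called by limma, the smallest adjusted p was 0.099, and 1317 (17.7%) had an unadjusted p under 0.05. The tumor pairs were also closer together in size: the median absolute difference between diets was 0.264 in the Dnmt+/- and 0.263 in the Dnmt+/+ tumor pair, against 0.305 and 0.341 in the normal pairs. The 2 genotypes within a diet differed by a median of 0.152 and 0.236 in tumors and 0.182 and 0.189 in normal intestine. In the tumor pairs 4.58% and 3.74% of probe sets differed at least 2-fold, and in the normal pairs 7.93% and 8.71%. A p-value that misses the threshold does not show that the tumors were alike on both diets.

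The tumor genes with the smallest p-values are described although none passed. Ift20, a protein of cilium assembly, read 973 and 1003 in tumors on diet 2 and 344 and 355 on diet 3 (difference -1.41 ± 0.13, adjusted p = 0.099). Ccnd2, cyclin D2, read 797 and 708 on diet 2 against 239 and 247 on diet 3 (difference -1.54 ± 0.15, adjusted p = 0.099). Pvalb, the calcium buffer parvalbumin, read 2338 and 2223 on diet 2 against 757 and 901 on diet 3 (difference -1.44 ± 0.16). The tRNA-processing nuclease Elac2 read 2615 and 2569.7 on diet 2 against 1248 and 1233 on diet 3 (difference -1.05 ± 0.13), but its second probe set gave -0.13 ± 0.18. Gtf2f2, a subunit of the transcription factor TFIIF, had a difference of -1.82 ± 0.21 in tumors and of 0.14 ± 0.21 in normal intestine.

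Among those higher in diet 3 tumors, Isg20, an interferon-induced exonuclease, read 161 and 72 on diet 2 and 445 and 384 on diet 3 (difference 2.00 ± 0.27, adjusted p = 0.113), with 0.32 ± 0.27 in normal intestine. The kallikrein Klk8 had a difference of 1.17 ± 0.16 (adjusted p = 0.113). The arrays of the 2 diets did not overlap in tumors for any of these genes. Since the genes were picked for the smallest p-values, this adds no support. None of these genes passed in the tumor pairs.

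Over all 4 matched pairs, with tissue and genotype as terms, 411 probe sets were called (5.51%), of which 229 were higher (3.07%) and 182 lower (2.44%) on diet 3, and 73 differed at least 2-fold. The share of calls that were higher was 55.7%, and 40% with values as deposited. By gene, 169 of 5651 were higher (2.99%) and 102 lower (1.8%). All 411 had the same direction in 4 of 4 pairs, as did 34.6% of all probe sets tested, and 193 of the 411 (and of the 558 in the normal pairs) were called in both comparisons. The tumor difference was larger than the normal one in 153 of the 411. This count did not hold with fewer arrays: it was 0 without any 1 of the 4 normal arrays, 8 and 7 without the Dnmt+/- or Dnmt+/+ tumor array of diet 2, and 71 and 5 without those of diet 3. With both diet 2 normal arrays left out, an alternative added after the data were seen, it was 0. With the matched pair as a block it was 31, and the count of the normal pairs was 348. The fit also took the arrays as independent, although the normal and tumor arrays of a diet and genotype share a sample code in the labels. The genes below are given with these limits.

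In size the increases were led by the RIKEN transcript 1110051M20Rik (1.68 ± 0.36), Prmt1 and Mmp9. Ptpn1, the phosphatase PTP1B that removes phosphate from the insulin receptor, read 737 and 689.9 in tumors on diet 2, 1846 and 1528 in tumors on diet 3, 532 and 372 in normal intestine on diet 2 and 1311 and 1128 on diet 3. Every diet 3 array was above every diet 2 array. Since the genes were picked among calls with the same direction in every pair, such separation adds no support. The difference of 1.39 ± 0.10 had the smallest adjusted p of the comparison (0.0109), which ranged from 0.0313 to 0.0691 when 1 array was left out. Prmt1, the main arginine methyltransferase, read 299 and 365 in diet 2 tumors and 1182 and 1261 in diet 3 tumors. Its normal arrays read 245 and 151 on diet 2 against 548 and 367 on diet 3, and the difference over all pairs was 1.63 ± 0.23 (adjusted p = 0.027). Dynll2, a light chain of dynein and myosin V, read 1539 and 1656 on diet 2 against 4069.7 and 3145 on diet 3 in tumors and 1742 and 2080.2 on diet 2 against 5010.0 and 4407 on diet 3 in normal intestine (difference 1.25 ± 0.14, adjusted p = 0.0181).

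Tnp1, a transition protein of sperm chromatin not known as an intestinal gene, was also higher on diet 3 in every array, at 289 and 321 on diet 2 against 603 and 679 on diet 3 in tumors and 291 and 273 on diet 2 against 706 and 592 on diet 3 in normal intestine (difference 1.19 ± 0.12). The RNA helicase Dhx36 rose by 1.21, the exosome subunit Exosc8 by 1.25 and the mitotic kinase Ttk by 1.27. The gelatinase Mmp9 rose by 1.45 ± 0.30, from 84 and 62 to 282 and 369 in normal intestine and from 246 and 378 to 519.8 and 460.1 in tumors, with differences of 2.09 and 0.81 in these tissues. Mmp7, the matrilysin of Paneth cells and adenomas, rose by 0.55 ± 0.10 (adjusted p = 0.0343). Its tumor arrays read 7517 and 8256 on diet 2 and 11469 and 13398 on diet 3, and its normal arrays 1194 and 1401 on diet 2 against 1838 and 2025 on diet 3. Plin2 (0.83 ± 0.13), the mitochondrial complex III subunit Uqcrc2 (0.65 ± 0.10), the interferon signalling factor Irf9 (0.58 ± 0.13) and the chemokine Ccl9 (0.75 ± 0.12) rose as well.

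Hnf4a, a nuclear receptor that maintains enterocyte differentiation, read 463 and 702 in tumors on diet 2 and 247 and 168 on diet 3, and 368 and 391 on diet 2 against 135 and 81.3 on diet 3 in normal intestine. No diet 3 array reached a diet 2 array, which again adds no support, and the difference was -1.64 ± 0.23 (adjusted p = 0.027). Of the apolipoprotein genes that Hnf4a is known to activate, Apob rose in normal intestine, and Apoa1 and Apoa4 had differences of 0.27 and 0.64 that did not pass. Apc, the gene mutated in these mice, read 328 and 306 on diet 2 against 196 and 144 on diet 3 in tumors and 236 and 294 on diet 2 against 183 and 138 on diet 3 in normal intestine (difference -0.79 ± 0.14, adjusted p = 0.0358). Its probe set cannot tell the mutant from the normal allele here. Ccnd2 fell by 1.03 ± 0.22 (adjusted p = 0.0477), with the diet 2 tumors highest. Tph1, the enzyme of serotonin synthesis in enteroendocrine cells, fell by 0.69 ± 0.10 (adjusted p = 0.027), from 359.8 and 323 to 218 and 214 in normal intestine and from 184 and 174 to 118 and 99.3 in tumors.

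Jkamp, a membrane protein of the endoplasmic reticulum, read 899.6 and 796 on diet 2 against 342 and 139 on diet 3 in tumors and 1051 and 721 on diet 2 against 299 and 255 on diet 3 in normal intestine (difference -1.75 ± 0.20). Gltp, a glycolipid transfer protein, read 5938 and 6122 on diet 2 against 3113 and 2675 on diet 3 in tumors and 4496 and 4326 on diet 2 against 1739.5 and 1933 on diet 3 in normal intestine (difference -1.18 ± 0.11), but its second probe set gave -0.02 ± 0.15 in tumors and -0.21 ± 0.15 in normal intestine. Slc4a4, a sodium bicarbonate cotransporter, fell by 1.36 and Elovl6 by 1.32, with values of -2.01 and -1.80 in the normal pairs and -0.71 and -0.85 in the tumor pairs. P4hb, protein disulfide isomerase, fell by 1.46 on its brightest probe set and had the opposite sign on another, which gave 1.02 ± 0.21 in normal intestine. The orphan receptor Gpr162 (-1.57 ± 0.32), the interleukin-18 inhibitor Il18bp (-1.25 ± 0.24, with 1 diet 3 array at the floor), the receptor phosphatase Ptpru (-1.21 ± 0.20) and Ift20 (-1.20 ± 0.13) fell as well. A second probe set of Gpr162 gave only -0.30 ± 0.17 over all pairs. Of 271 genes called over all pairs, 53 had further probe sets tested. Of those 67 further probe sets, 48 had the same sign, and 9 of them were called too.

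**Figure D3:**
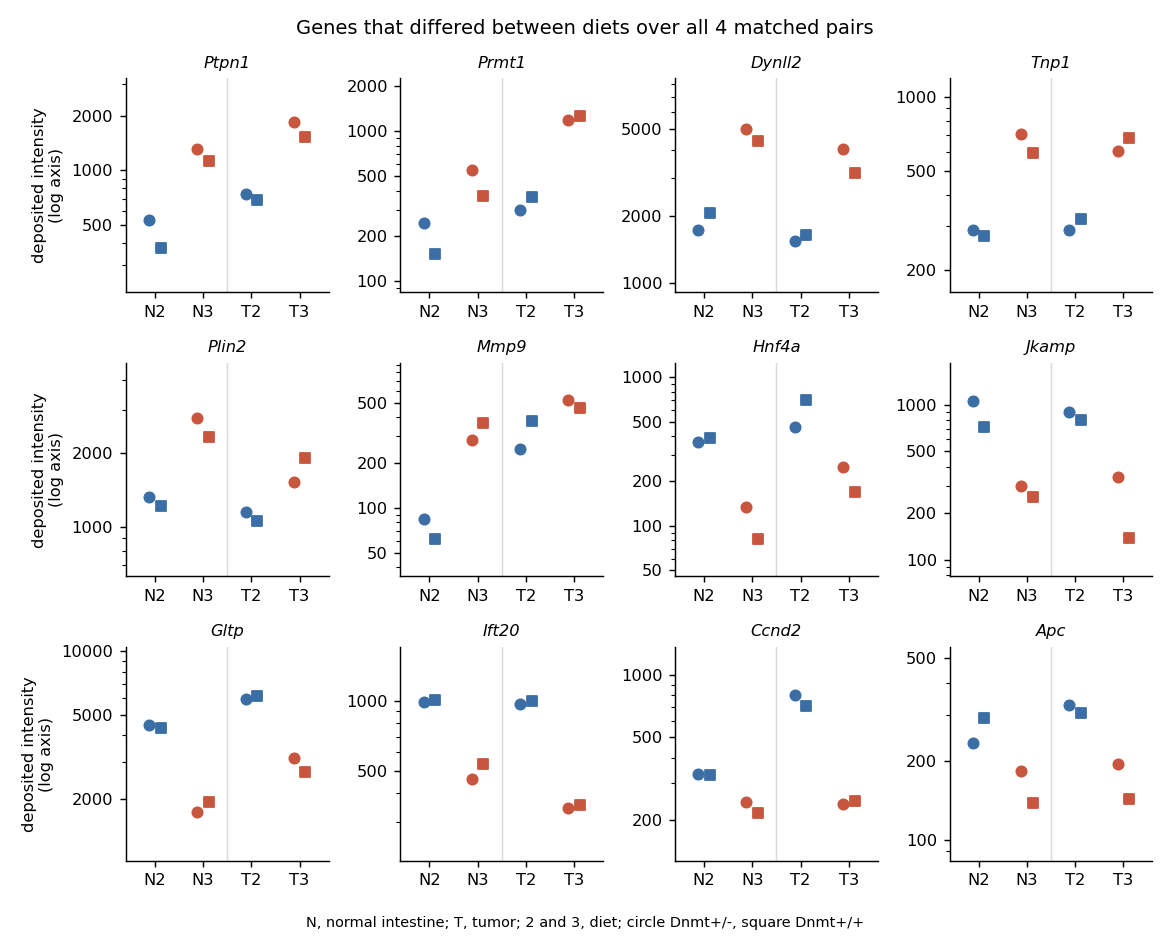
Deposited intensity (log axis, 1 panel per gene) of 12 genes over the 8 arrays, with normal intestine (N) left and tumors (T) right of the grey line, diet 2 in blue, diet 3 in red, Dnmt+/- as circles and Dnmt+/+ as squares. Within each tissue the diet 3 arrays of Ptpn1, Prmt1, Dynll2, Tnp1, Plin2 and Mmp9 lie above both diet 2 arrays, and those of Hnf4a, Jkamp, Gltp, Ift20, Ccnd2 and Apc lie below them.

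Genes called in normal intestine often had the same direction in tumors, with smaller differences. Of the 558 probe sets called in normal intestine, 429 (76.9%) had a tumor difference of the same sign, against 63.7% of all probe sets tested. Their tumor differences were small: the median was 0.275 for probe sets called higher, whose median in normal intestine was 0.965, and -0.25 for those called lower, whose median there was -1.13. The normal and tumor pairs share no array, but the arrays of a diet and genotype share a sample code in the labels, so they may share animals or handling and are not independent evidence of each other.

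The difference between tissues was tested directly. The diet difference in tumors minus that in normal intestine passed for 42 probe sets (0.564%), 33 of them positive (0.443%) and 9 negative (0.121%), and 11 of the 42 belonged to the pancreas lists. The positive share of 78.6% was 58.5% with values as deposited and 68.8% with median scaling. The count was 26 and 34 without the Dnmt+/- or Dnmt+/+ normal array of diet 2, 17 and 17 without those of diet 3, 19 and 18 without the tumor arrays of diet 2 and 18 and 24 without those of diet 3. The 9 negative ones had a lower difference between diets in tumors than in normal intestine. They included Slc34a2 at -4.49 ± 0.40 (adjusted p = 0.011), Lap3 at -2.16 ± 0.27 and Aldh1a1 at -2.10 ± 0.27. Lap3 and Aldh1a1 lost this call whichever array was left out. Cndp2, a cytosolic dipeptidase, read 639 and 858 in normal intestine on diet 2 and 2946 and 3109 on diet 3, while its tumors read 3471 and 3858 on diet 2 against 2839.9 and 3341 on diet 3. Ddit4, a stress-induced inhibitor of mTOR signalling, read 158 and 183 on diet 2 against 731 and 876 on diet 3 in normal intestine and 926 and 863 on diet 2 against 1004 and 1217 on diet 3 in tumors. Outside the pancreas lists the positive ones included Tff2, Slc11a2, Gatm, Clu, Slc2a1 and Ggh.

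**Figure D4:**
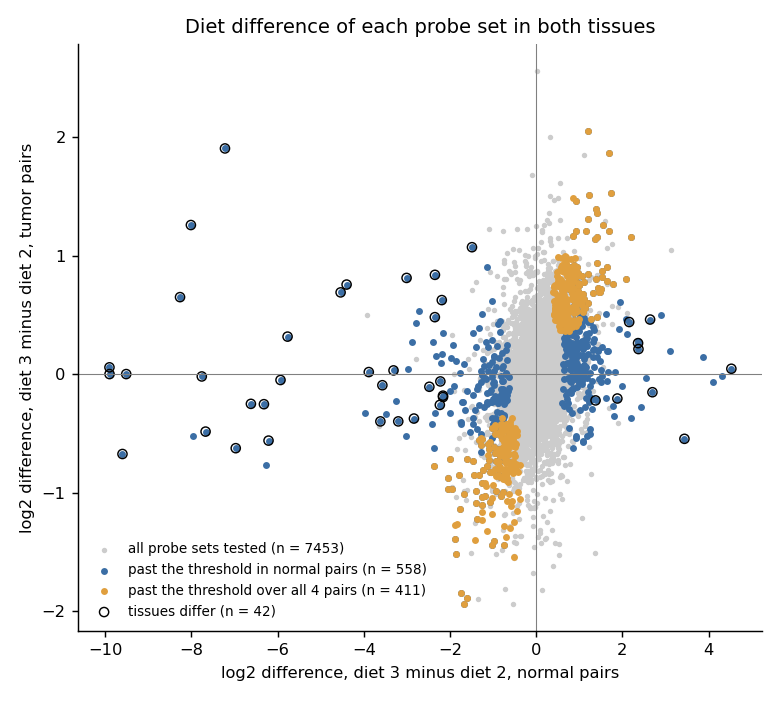
Log2 difference between diets (diet 3 minus diet 2) of each of the 7453 probe sets in the normal pairs (x axis) and the tumor pairs (y axis), with probe sets called in the normal pairs in blue, those called over all 4 pairs in orange drawn on top, and the 42 whose difference differed between tissues circled. The x axis reaches -9.90 and the y axis stays within -1.94 and 2.56, and most circled points lie at the far left.

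Lists of interferon response, MHC class II, B and plasma cell and T and NK cell genes had positive medians in tumors, mostly through the Dnmt+/- pair, and no member of these 4 lists was called for a difference between tissues. Of 32 measured interferon response genes 27 were above 0 in tumors, with a median of 0.27 beside -0.001 over all genes, while in normal intestine 16 were above 0 and 16 below, with a median of 0.02. None was called within a tissue, and Irf9 was the single call over all pairs, where 10 of the 32 were higher in all 4 pairs, beside 1031 of all 5651 genes. Isg20 (2.00), Tap2, a peptide transporter of antigen presentation (1.12), and the chemokine Cxcl9 (0.81) did not pass in tumors. Of 10 MHC class II genes 9 were above 0 in tumors (median 0.42), led by H2-Oa (1.22) and H2-DMb2 (0.83). Of 14 B and plasma cell genes 11 were above 0 in tumors (median 0.51): the B cell surface protein Ms4a1 (1.36), the antigen receptor chain Cd79b (1.30) and the factor Pax5 (1.21) had differences over 1, while the antibody chains Igha (0.03) and Ighm (-0.23) did not. The antibody chain Ighg3 fell over all pairs (-0.81 ± 0.13). Ms4a1 read 286 and 309.9 in tumors on diet 2 and 1668 and 272 on diet 3, so only the Dnmt+/- tumor array of diet 3 was high. The B and plasma cell median was 1.00 in the Dnmt+/- tumor pair and -0.07 in the Dnmt+/+ pair. The same medians were 0.94 and 0.02 for MHC class II and 0.43 and 0.15 for interferon response genes. The T and NK cell list had 8 of 9 genes above 0 in tumors (median 0.23), with medians of 0.37 and 0.04 in the 2 pairs. Whether the tumors held different numbers of lymphocytes was not tested.

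Of 52 oxidative phosphorylation genes 37 were below 0 in tumors (median -0.12) and 36 above 0 in normal intestine (median 0.15), and Uqcrc2 was the single call over all pairs. Cytosolic ribosomal proteins had medians of 0.095 in tumors and 0.21 in normal intestine, with 14 of 28 higher in all 4 pairs and 3 lower in all 4, beside 1031 and 860 of all 5651 genes, and 1 of the 28 was called in normal intestine. Matrix and fibroblast genes had 0 calls among 39 and medians of -0.04 and -0.02, and goblet cell genes 0 calls among 15. Of 13 folate and DNA methylation genes, Mbd2, a methyl-DNA-binding protein, rose over all pairs (0.56 ± 0.11, adjusted p = 0.0387), Ggh fell in normal intestine and the list's median was 0.08 in tumors and -0.11 in normal intestine. The ileal bile acid-binding protein Fabp6 was high in the tumors of both diets (16857 and 17489 on diet 2, 14581 and 10792 on diet 3) and far lower in the normal arrays of both (167 and 163 on diet 2 against 153 and 174 on diet 3).

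**Figure D5:**
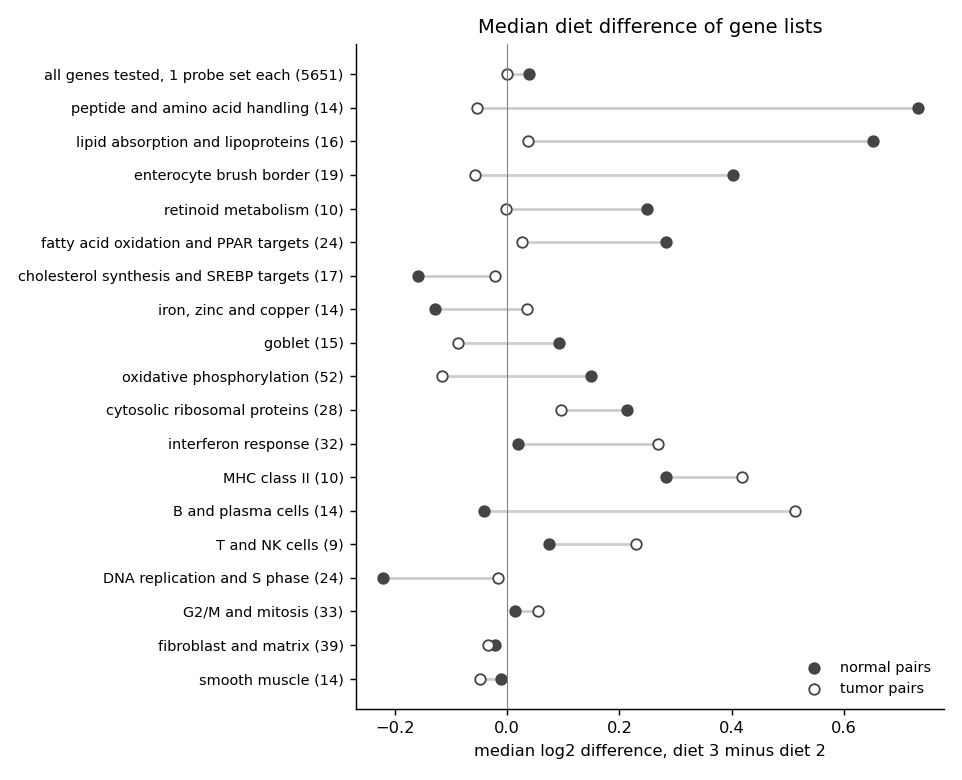
Median log2 difference between diets (diet 3 minus diet 2) of 18 gene lists and of all 5651 genes tested, in normal pairs (filled) and tumor pairs (open), with the number of measured genes in brackets. Peptide handling (0.73) and lipid absorption (0.65) lie farthest right in normal intestine, and B and plasma cell (0.51) and MHC class II genes (0.42) in tumors, where the Dnmt+/+ pair alone gave medians near 0.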

How the data were processed

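The deposited values are linear intensities of Affymetrix MG_U74Av2 arrays, per the labels, and were scaled so that each array used here has a mean of 1000. No label or header names the summarising software. Of 12488 probe sets, 66 controls were left out. The other 12422 were quantile normalized over the 8 arrays, raised to a floor of 38.7 (the 20th percentile) and put on the log2 scale, and the lowest 40% by mean were dropped, leaving 7453. A floor shrinks the differences of dim genes. Gene names came from the platform annotation, and 10833 probe sets had 1 symbol, 396 several and 1193 none. In lists each gene was read from its brightest probe set (5651 genes).

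Differences were tested with limma 3.58.1 in R 4.3.3. The fit over all pairs had tissue, genotype and diet as terms (4 residual degrees of freedom), and tumor pairs, normal pairs and their difference came from 1 fit with a mean per tissue and diet plus genotype (3). The fits were tested on simulated data. Of the called genes that could be named, those with the 10 largest differences each way were named, again without the pancreas lists, with the 3 largest called members of each of 50 gene lists, or the 5 smallest p-values each way where fewer than 5 passed. The members, lists and tests were chosen with earlier results of these data known. Gene list members printed without passing, and Fabp6 and Ms4a1, were picked with their values in view. The replicate number equals the Dnmt genotype, so genotype as a term is the block. Alternatives covered scaling, floor, filter, variance, block, threshold and each array left out. Diet 1 arrays, on another scale, were used in 1 alternative only.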

Additional observations from a re-analysis of the deposited data

Results flagged for a closer look

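For 27 named genes the difference between diets itself differed between tumors and normal intestine in limma's test of the interaction. Values are the log2 difference between diets in tumors minus that in normal intestine, with p-values adjusted over all 7453 probe sets. No cause of them was tested. Stable, as used above, was judged for the normal pairs only. For the interaction Lap3, Aldh1a1, Ints9, Ddit4, Sgpl1, Clu, Slc2a1 and Ggh lost their call whichever array was left out.

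Among genes of exocrine pancreas, the values were Prss2 9.52 (adjusted p = 8.11e-06), Pnliprp1 9.27 (adjusted p = 0.00601), Ctrl 9.12 (adjusted p = 0.000434), Cela2a 7.74 (adjusted p = 0.00496), Cela1 6.37 (adjusted p = 0.00295), Cel 6.35 (adjusted p = 0.000102), Rnase1 6.07 (adjusted p = 0.00756) and Ctrb1 5.65 (adjusted p = 0.00022). Prss2 was at the floor on every array except the diet 2 normal arrays, so its tumor difference has no measured size. The floor also held its spread down, so its p-value gives no measure of support.

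Outside that list the genes with a positive value were lower on diet 3 in normal intestine. The first 5 were Tff2 8.91 (adjusted p = 0.0159), 2210010C04Rik 5.88 (adjusted p = 0.000295), Slc11a2 5.23 (adjusted p = 0.00758), Gatm 3.82 (adjusted p = 0.0015) and Klk1b1 3.48 (adjusted p = 0.0432). Slc11a2, the iron importer, was lower in tumors than in normal intestine on diet 2 (-4.46) and higher on diet 3 (0.77) on this probe set only: its second probe set had an interaction of -0.04 ± 0.19 (adjusted p = 0.946). The remaining values were Tnni1 3.19 (adjusted p = 0.041), Fkbp11 2.46 (adjusted p = 0.0494), Clu 2.37 (adjusted p = 0.0271), Slc2a1 2.16 (adjusted p = 0.0343) and Ggh 1.98 (adjusted p = 0.0307). In tumors Tff2 (0.65), Slc11a2 (0.69), Gatm (0.81) and Tnni1 (0.84) had differences above 0, and the rest of these genes had differences below 0. Clusterin (Clu) was higher in tumors than in normal intestine by 1.81 on diet 2 and by 4.18 on diet 3, and its second probe set did not pass (interaction 2.30 ± 0.41, adjusted p = 0.103).

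The genes with a negative value had a higher difference between diets in normal intestine than in tumors. The first 5 were Slc34a2 -4.49 (adjusted p = 0.011), Acta1 -3.99 (adjusted p = 0.0481), Tbc1d24 -2.85 (adjusted p = 0.0105), Ints9 -2.18 (adjusted p = 0.0319) and Lap3 -2.16 (adjusted p = 0.041). The others were Aldh1a1 -2.10 (adjusted p = 0.0462), Cndp2 -2.09 (adjusted p = 0.0254), Ddit4 -1.72 (adjusted p = 0.0473) and Sgpl1 -1.60 (adjusted p = 0.0473). In tumors Acta1 (-0.55), Tbc1d24 (-0.15), Cndp2 (-0.21) and Sgpl1 (-0.22) had differences below 0, and the rest of these genes had differences above 0. The phosphate transporter Slc34a2 was higher in tumors than in normal intestine by 5.83 on diet 2 and by 1.35 on diet 3. Skeletal actin (Acta1) was level between the tissues on diet 2 (0.06) and lower in tumors on diet 3 (-3.92). A second probe set of Sgpl1 did not pass (interaction -1.50 ± 0.30, adjusted p = 0.132). It had a difference of 0.25 ± 0.21 in normal intestine and -1.25 ± 0.21 in tumors, so its interaction came mostly from the tumors.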

How the results depend on the processing

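With the matched pair as a fixed replicate block the count over all pairs fell from 411 to 31 and that of the normal pairs from 558 to 348, with a random replicate block for the code shared by arrays the first rose to 1697 (correlation within codes -0.354), and without the genotype block it was 618, with 5 in tumors. No filter gave 256 over all pairs, 11 in tumors, 285 in normal intestine and 12 for the difference between tissues. Leaving out the lowest 60% gave 26 in tumors and 66 for the difference between tissues. Trended robust variances gave 668, 92, 1018 and 118 in the same order. A floor at the 40th percentile gave 10 in tumors and 93 for the difference between tissues, which was 64 with median scaling, 65 with values as deposited and 24 with all 12 arrays, where the normal pairs gave 300. At adjusted p 0.01 the counts were 0, 0, 69 and 17, and at 0.1 they were 1040, 5, 1242 and 95. The average of both tissues in the tissue by diet fit gave 777, the 4 normal arrays alone 45, and the 4 tumor arrays alone 0. Leaving out each array gave 0 to 71 over all pairs, 0 in tumors, 45 to 463 in normal intestine and 17 to 34 for the difference between tissues (as low as 17 without either diet 3 normal array). Without both diet 2 normal arrays the count over all pairs was 0. The deviations of same-numbered arrays of the 2 diets correlated at 0.186 in tumors and -0.003 in normal intestine. Settings with fewer arrays leave fewer degrees of freedom. In the other cases the cause was not tested.

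The share of calls higher on diet 3 over all pairs was 55.7%, and 40% with values as deposited (114 higher, 171 lower), which moved the median difference in tumors to -0.097. For the difference between tissues the positive share was 78.6%, and 58.5% as deposited, where the median difference over all probe sets was -0.140, and 68.8% with median scaling. Cyclic loess, a reference without pancreas probe sets, a floor at the 5th percentile, 1 probe set per gene and a restriction to probe sets above the floor on all 8 arrays (chosen after seeing the data, as were leaving out both diet 2 normal arrays and the pancreas lists) left all 4 counts within 1.5 times. No named gene past the threshold changed sign under the alternatives run. On each array 20% to 20.2% of probe sets lay at the floor, where differences are bounds.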

Other observations

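Paneth cell genes were above 0 in 6 of 7 cases in normal intestine, with a median of 0.36, and in 4 of 7 in tumors (median 0.11). Of 24 genes of fatty acid oxidation 20 were above 0 in normal intestine (median 0.28) and 13 in tumors (median 0.03), and 0 were called by limma in either tissue. Goblet cell genes were below 0 in 13 of 15 cases in tumors (median -0.09). Mast cell genes were below 0 in 5 of 6 cases in each tissue, with medians of -0.28 in tumors and -0.52 in normal intestine, and Mcpt1 was the single call. Of 14 clock genes 10 were below 0 in each tissue. The labels do not give the time of day of sampling. These counts stand beside 2813 of 5651 genes above 0 in tumors and 3042 in normal intestine.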
